A study of Homo sapiens with 6 samples.

Results

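The 10 core circadian clock genes were CLOCK, ARNTL, NPAS2, PER1, PER2, PER3, CRY1, CRY2, NR1D1 and NR1D2. They were chosen by gene symbol, which was found on 1 row each among the 31762 genes counted, and all 10 passed the filter on low counts. H460 is a human cell line derived from a large cell carcinoma of the lung, labelled as wild type in both groups. The treated group was exposed to 20 µM fluoxetine, an antidepressant that blocks serotonin reuptake, for 24 h in 3 libraries. The control group, also of 3 libraries, carries only the label control, and what these cells received in place of the drug is not given in the sources used here. A single cell line was used and no source says that the libraries came from separate cultures, so the p-values measure the spread between these samples alone.

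In fluoxetine-treated H460 cells, 4 of the 10 clock genes rose and 0 fell. PER3, a member of the period family, rose 2.97-fold. The nuclear receptor repressors NR1D1 and NR1D2 rose 1.75-fold and 1.5-fold, and NPAS2, a partner of ARNTL, rose 1.41-fold. The other activators, PER1, PER2 and both cryptochromes did not pass the threshold, which was an adjusted p-value under 0.05 by the quasi-likelihood test of edgeR, with Benjamini-Hochberg correction over 15646 genes. By the same rule 13.1% of all tested genes were called, 7.76% as higher and 5.32% as lower. PER3 was the 1 clock gene that also changed at least 2-fold, as 1.39% of all tested genes did. The median log2 fold change of the 10 clock genes was 0.30, compared with 0.03 for all genes tested.

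The circadian clock is a feedback loop of transcription with a period of about a day. CLOCK or its relative NPAS2 pairs with ARNTL, also called BMAL1, and the pair activates the PER, CRY and NR1D genes through E-boxes in their promoters, and PER and CRY proteins then return to the nucleus and repress that pair. NR1D1 and NR1D2, known as REV-ERB alpha and beta, repress ARNTL through elements that the RORs activate, while the PAR bZIP activators DBP, TEF and HLF and the repressor NFIL3 share D-boxes in PER and NR1D genes. All libraries were of a single time after treatment, so a change in the level of a rhythmic transcript and a change in its phase cannot be told apart, and in RNA of whole cultures neither can fewer expressing cells and less RNA per cell.

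Levels are in CPM, counts scaled to the size of their library, after TMM normalization, which corrects for composition. The libraries held between 16157507 and 27823667 counts, and every fluoxetine library was shallower than every control library. A count of 0 would allow 3 counts, worth 0.108 to 0.186 CPM per library by counting error alone, and no clock gene came near this limit. As markers of the labelled carcinoma, the keratins were abundant, with KRT8 at 1844 ± 355 CPM and KRT19 at 1287 ± 116 CPM (SD, n = 3) in control cells. EPCAM had only 4 to 11 counts and CDH1 0 to 1, and the alveolar markers NKX2-1, SFTPC and NAPSA had 0 to 9. The leukocyte gene PTPRC and the endothelial gene PECAM1 had 0 to 2 counts, while the fibroblast gene COL1A1 had 59 to 118. KRT18 fell from 512 ± 45.0 to 312 ± 39.2 CPM (SD, n = 3; log2 fold change -0.72, adjusted p = 0.00162), and the part of this shift in the clock results was not tested.

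**Figure D1:**
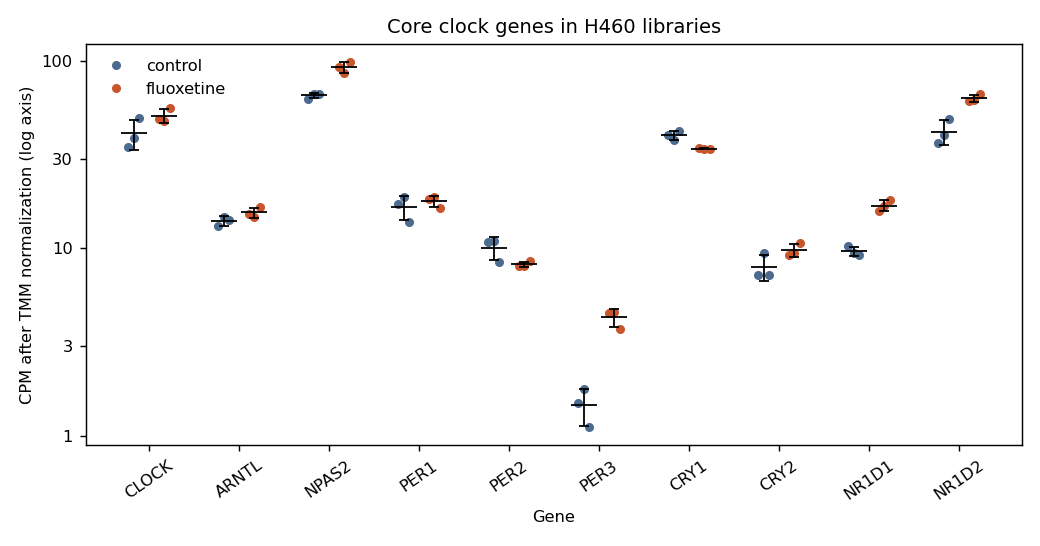
Level of each core clock gene in every library, in CPM after TMM normalization on a log axis, with blue points for the 3 control and orange points for the 3 fluoxetine libraries, long bars for the group means and short caps for 1 SD on either side. The fluoxetine points of NPAS2, PER3, NR1D1 and NR1D2 lie above all control points, and those of CRY1 lie below.

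Among the activators, NPAS2 rose while its relative CLOCK and their partner ARNTL did not pass the threshold. NPAS2 (ENSG00000170485, GRCh38 chromosome 2, 100820152 to 100996829, plus strand) encodes a bHLH-PAS protein that can take the place of CLOCK in the dimer. It was measured at 63.0, 66.8 and 66.5 CPM in control replicates 1, 2 and 3 and at 92.7, 86.2 and 98.2 CPM in the fluoxetine replicates. The groups did not overlap and were tight, with the lowest treated library well above the highest control. The mean rose from 65.4 ± 2.1 to 92.4 ± 6.00 CPM (SD, n = 3), or by 0.50 on the log2 scale (standard error, SE, 0.08, 95% confidence interval 0.32 to 0.67, adjusted p = 0.00316 from edgeR). Of its exonic bases, 748 (5.99%) are shared with the antisense gene AC016738.1, which had means of 0.930 and 1.33 CPM (log2 fold change 0.48, adjusted p = 0.352). Whether reads were counted by strand is not given in the sources used here.

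CLOCK (chromosome 4, 55427903 to 55547138, minus strand) encodes a bHLH-PAS activator. Its level was 34.9, 38.9 and 49.5 CPM in control cells and 49.1, 47.6 and 55.9 CPM after fluoxetine. Control replicate 3 reached the level of the treated libraries, so the groups overlapped. The log2 fold change was 0.31 (SE 0.13, 95% confidence interval 0.02 to 0.59, adjusted p = 0.148 from edgeR). Leaving out control replicate 3 gave 0.43 (adjusted p = 0.00950), while leaving out control replicate 1 gave 0.17 (adjusted p = 0.497). Calls over all genes moved as well, to 3633 without control replicate 3 and 1191 without control replicate 1, against 2047 with all libraries. ARNTL (chromosome 11, 13276652 to 13387266, plus strand), the shared partner of both and the gene that REV-ERB proteins repress, was at 13.2, 14.8 and 14.2 CPM in control cells and 15.3, 14.8 and 16.6 CPM in treated cells. The groups overlapped, and the log2 fold change was 0.15 (SE 0.11, adjusted p = 0.434 from edgeR) with a 95% confidence interval of -0.10 to 0.39, which contains neither a halving nor a doubling. Leaving out control replicate 1 gave 0.066 and leaving out fluoxetine replicate 3 gave 0.073 for ARNTL. CLOCK shares 76 exonic bases with TMEM165 (log2 fold change -0.13, adjusted p = 0.283), and the small RNA gene RF00019 lies in it without shared exonic bases (0.13, adjusted p = 0.601).

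**Figure D2:**
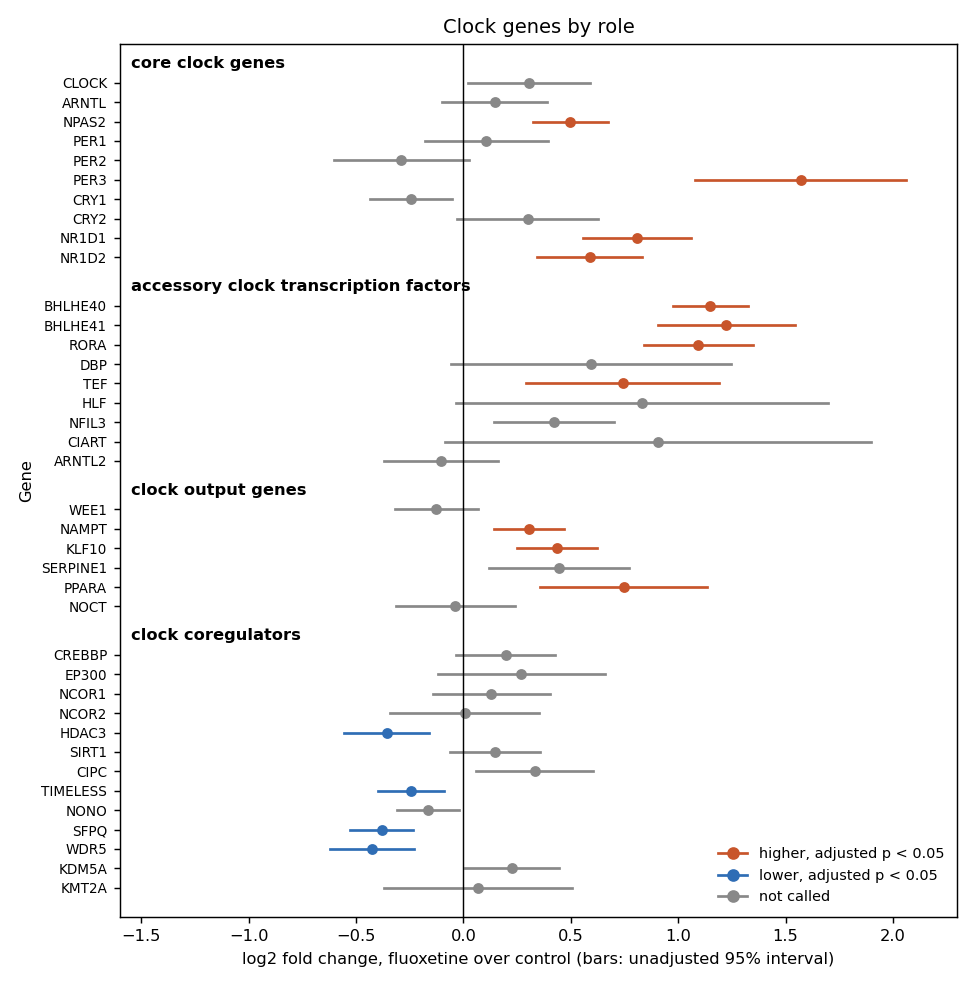
Log2 fold change of fluoxetine over control from edgeR for the core clock genes and, under them, accessory factors, output genes and coregulators, with bars for the unadjusted 95% confidence interval, orange for higher and blue for lower at an adjusted p-value under 0.05, and grey for genes not called. Among the core genes PER3 stands apart at 1.57, NR1D1, NR1D2 and NPAS2 lie between 0.50 and 0.81, and PER2 and CRY1 are the core genes with an estimate below 0.

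The period genes, whose proteins form the repressing complex with the cryptochromes, differed in their calls, since PER3 rose while PER1 and PER2 did not pass the threshold. PER3 (ENSG00000049246, GRCh38 chromosome 1, 7784320 to 7845177, plus strand), regarded as the least essential period gene for the rhythm itself, had 33, 34 and 31 counts in the control libraries and 75, 77 and 64 in the smaller treated libraries. These counts correspond to 1.5, 1.77 and 1.12 CPM in control cells and to 4.55, 4.58 and 3.73 CPM after fluoxetine. Every treated library was more than 2-fold above every control library. The mean rose from 1.46 ± 0.329 to 4.29 ± 0.485 CPM (SD, n = 3), or by 1.57 on the log2 scale (SE 0.22, 95% confidence interval 1.08 to 2.06, adjusted p = 0.00172 from edgeR). PER3 shares 868 exonic bases (10.7%) with UTS2 and 482 (5.95%) with the antisense gene Z98884.1, both on the other strand and not analysed here, and whether reads of these genes were counted on PER3 was not tested.

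PER1 (chromosome 17, 8140472 to 8156506, minus strand), an immediate early gene of the clock that responds to cAMP and glucocorticoids, had 17.3, 18.7 and 13.9 CPM in control cells and 18.3, 18.8 and 16.5 CPM in treated cells. These groups overlapped and the log2 fold change was 0.11 (SE 0.13, 95% confidence interval -0.18 to 0.39, adjusted p = 0.620 from edgeR), with no stable sign, since it was -0.044 without control replicate 3. PER2 (chromosome 2, 238244038 to 238290102, minus strand), a central repressor of the loop, was at 10.9, 10.9 and 8.43 CPM in control cells and at 8.08, 8.03 and 8.56 CPM in treated cells. Control replicate 3 lay among the treated libraries, and the log2 fold change was -0.29 (SE 0.14, 95% confidence interval -0.60 to 0.02, adjusted p = 0.209 from edgeR). PER2 shares 188 exonic bases with AC012485.1, which had 0 to 2 counts. Without control replicate 3 the value for PER2 was -0.44 (adjusted p = 0.0435). That fit also called more genes as lower over the whole table, 2006 of 15795, against 833 of 15646 in the main fit. Control replicate 3, the deepest of the 6 libraries, held the lowest control level of all 3 period genes and the highest of CLOCK and NR1D2.

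The makeup of the period transcripts was compared as well. Per kilobase of exon, PER3 made up 4.36%, 4.88% and 4.12% of the summed period level in the control libraries and 12.9%, 12.8% and 11.3% in the treated ones. The share of PER2 was 37.4%, 35.5% and 36.6% in control cells and 27.0%, 26.4% and 30.7% after fluoxetine. PER1 held the larger part throughout, at 59.1% ± 0.703 and 59.6% ± 1.44 (SD, n = 3), and its groups overlapped. Shares of a sum are bound to one another, so the ratios of pairs were tested within libraries. The ratio of PER3 to PER2 had a geometric mean of 0.122 in control cells and 0.441 after fluoxetine, a difference of 1.86 on the log2 scale. The ratio of PER1 to PER2 went from 1.62 to 2.13 and that of PER3 to PER1 from 0.0752 to 0.207. For all 3 ratios the groups did not overlap and the two-sided exact permutation p was 0.1, the smallest that 3 libraries against 3 can give (0.15 after adjustment over the 6 pairs of related genes compared), so no such ratio could pass the threshold.

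**Figure D3:**
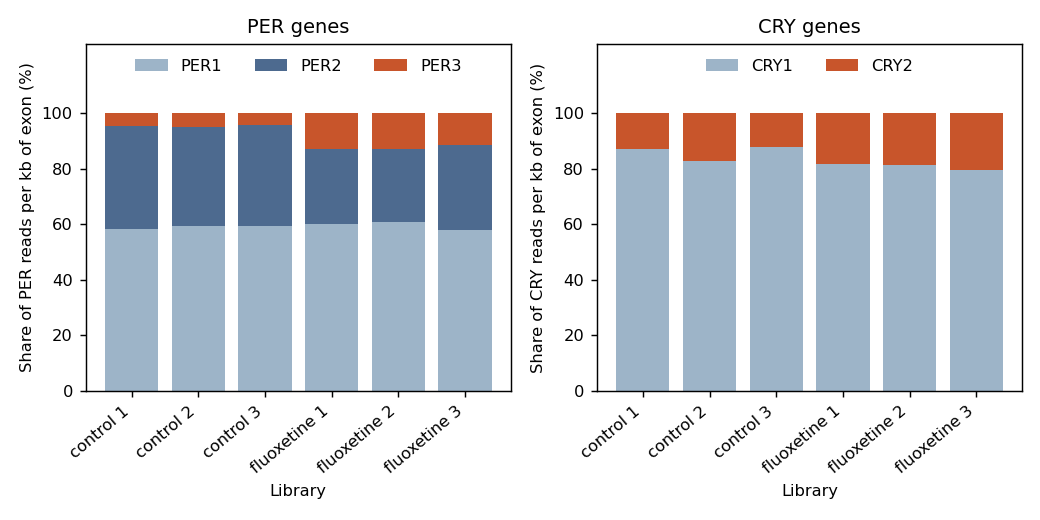
Share of each period and cryptochrome gene in the summed level of its family, in percent of CPM per kilobase of exon, for every library as stacked bars. The PER3 share is between 11.3% and 12.9% in treated cells and at most 4.88% in control cells, and the CRY2 share is at least 18.1% in treated cells and at most 17.0% in control cells.

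The promoters of the period genes differed in the clock motifs they held. Windows of 300 bases around the RefSeq start sites (GRCh38.p14) were searched on both strands, with 15 windows for the 10 clock genes among 35116 windows of 27305 genes. The E-box CACGTG was in 7.26% of all windows, the E-prime box CACGTT in 5.34%, the D-box, as TTATGTAA or TTACGTAA, in 1.01%, and the ROR half-site AGGTCA in 13.8%. The stretches below show the motif of PER3, the period gene that rose, and for contrast those of PER1 and PER2, which did not pass the threshold, each 5′ to 3′ on the strand of the gene, with motif letters in capitals.
PER3, chr1:7784094-7784141, plus strand: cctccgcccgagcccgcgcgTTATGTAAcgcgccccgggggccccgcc
PER1, chr17:8152523-8152597, minus strand: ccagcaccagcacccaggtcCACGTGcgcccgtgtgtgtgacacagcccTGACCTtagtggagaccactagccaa
PER2, chr2:238288782-238288827, minus strand: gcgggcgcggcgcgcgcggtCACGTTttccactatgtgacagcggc
The PER3 stretch held a D-box, at -177 from the first RefSeq start of the gene, and the window at its second start held no motif searched. PER1 held an E-box at -173 followed by the ROR half-site in its reverse complement, TGACCT. PER2 held the E-prime box at -197 and, beyond the stretch shown, a D-box at -3. A D-box was thus in the window of a period gene that rose and of a period gene that did not pass the threshold. A match is a description of these letters and does not show that a factor bound there.

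The cryptochromes, flavoproteins that block the activator pair directly, did not pass the threshold. CRY1 (chromosome 12, 106991364 to 107093829, minus strand), the stronger repressor, was at 40.3, 37.8 and 42.4 CPM in control cells and at 34.1, 33.7 and 33.9 CPM after fluoxetine. The treated libraries were nearly equal and lay below all control libraries, with a log2 fold change of -0.24 (SE 0.09, 95% confidence interval -0.44 to -0.05, adjusted p = 0.0918 from edgeR). With the trends in GC content and transcript length removed from each library, the values of CRY1 (-0.34, adjusted p = 0.00384) and PER2 (-0.41, adjusted p = 0.0279) passed, while that of CLOCK was 0.08. That setting also called more genes as lower over the whole table, 2287 of 15646, against 833 in the main fit. CRY2 (chromosome 11, 45847118 to 45883248, plus strand) was at 7.26, 9.48 and 7.20 CPM in control cells and 9.23, 9.40 and 10.7 CPM in treated cells. Control replicate 2 overlapped the treated libraries, and the log2 fold change was 0.30 (SE 0.15, 95% confidence interval -0.03 to 0.63, adjusted p = 0.216 from edgeR). The ratio of CRY1 to CRY2 per kilobase went from a geometric mean of 6.21 to 4.26 without overlap of the groups (difference on the log2 scale -0.54, two-sided exact permutation p = 0.1, adjusted 0.15). Counted over the 10 clock genes, the groups did not overlap for 5, with NPAS2, PER3, NR1D1 and NR1D2 above and CRY1 below, compared with 31.9% of all tested genes.

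Both REV-ERB genes rose. NR1D1 (ENSG00000126368, GRCh38 chromosome 17, 40092787 to 40100725, minus strand) encodes REV-ERB alpha, a heme-binding nuclear receptor that represses ARNTL and many metabolic genes. Its level was 10.3, 9.48 and 9.26 CPM in control cells and 15.8, 16.8 and 18.1 CPM after fluoxetine. The groups were far apart compared with their spread. The mean went from 9.66 ± 0.521 to 16.9 ± 1.10 CPM (SD, n = 3), and the log2 fold change was 0.81 (SE 0.11, 95% confidence interval 0.56 to 1.06, adjusted p = 0.00171 from edgeR). NR1D1 shares 263 exonic bases (9.49%) with THRA, the thyroid hormone receptor alpha gene on the opposite strand, whose own log2 change was 0.17 (SE 0.12, adjusted p = 0.419).

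NR1D2 (ENSG00000174738, GRCh38 chromosome 3, 23945260 to 23980618, plus strand) encodes REV-ERB beta, which overlaps in function with REV-ERB alpha. It was the more abundant of both, at 36.6, 40.1 and 48.9 CPM in control cells and 61.0, 61.8 and 66.3 CPM in treated cells. Even the highest control library, replicate 3, was below every treated library. The mean went from 41.9 ± 6.31 to 63.0 ± 2.89 CPM (SD, n = 3), and the log2 fold change was 0.59 (SE 0.11, 95% confidence interval 0.34 to 0.83, adjusted p = 0.00737 from edgeR). Without control replicate 2 the log2 fold change was 0.52 and the adjusted p was 0.0583, which ended the call. NR1D2 overlaps NKIRAS1 in the annotation but shares 0 exonic bases with it (NKIRAS1 log2 fold change 0.028, adjusted p = 0.900). The ratio of NR1D1 to NR1D2 per kilobase was 0.488 in control cells and 0.563 after fluoxetine, with overlapping groups (two-sided exact permutation p = 0.4, adjusted 0.4).

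Promoter stretches of the REV-ERB genes are shown because both genes rose and each had a window with clock motifs, again 5′ to 3′ on the strand of the gene with motif letters in capitals.
NR1D1, chr17:40100732-40100777, minus strand: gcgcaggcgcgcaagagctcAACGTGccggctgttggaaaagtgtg
NR1D2, chr3:23945907-23946041, plus strand: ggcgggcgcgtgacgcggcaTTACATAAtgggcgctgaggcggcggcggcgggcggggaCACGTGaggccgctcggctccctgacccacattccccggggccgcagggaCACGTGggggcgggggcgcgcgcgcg
NR1D1 held the reverse complement of the E-prime box, AACGTG, at -168 from the start. NR1D2 held the D-box in its reverse complement, TTACATAA, at -194 and a pair of E-boxes at -155 and -105 from its second annotated start. The window at the first annotated start of NR1D2 held no motif searched. ARNTL, the target of the REV-ERB proteins, held a ROR half-site 31 bases past one of its starts. No motif searched was in the window of NPAS2, the other gene that rose. Over the 10 clock genes, 2 held an E-box, 5 an E-prime box, 3 a D-box and 3 a ROR half-site. Counted by window, as the shares of all windows were, these motifs were in 2, 5, 3 and 4 of the 15 clock gene windows. The cAMP response element TGACGTCA, in 1.85% of all windows, and the ATF4-C/EBP composite TGATGCAA, in 0.866%, were in the windows of 0 clock genes.

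Compared per kilobase of exon, the order of the clock transcripts in control cells was led by CRY1 (7.93 CPM per kilobase) and NR1D2 (7.20), whose libraries overlapped. NPAS2 followed at 5.24, then CLOCK and NR1D1, both at 3.49, with overlapping libraries. Lower still were PER1 (2.38) and ARNTL (2.09), which overlapped, and PER2 (1.47) and CRY2 (1.29), which overlapped as well, with PER3 last at 0.180 CPM per kilobase. After fluoxetine NR1D2 was first, at 10.8 CPM per kilobase, and its libraries did not overlap those of NPAS2 (7.39), which came next. CRY1 followed at 6.70, ahead of NR1D1 (6.10) and CLOCK (4.32). The last 5 were PER1 (2.55), ARNTL (2.31), CRY2 (1.58), PER2 (1.20) and PER3 (0.529), and of these neighbours only PER1 and ARNTL overlapped. NPAS2 exceeded CLOCK in every library, with ratios per kilobase of 1.27 to 1.70 in control cells and 1.65 to 1.78 in treated cells (two-sided exact permutation p = 0.2, adjusted 0.24). Length here was the union of annotated exons (12.5 kilobases for NPAS2, 5.06 for CRY1), and which transcripts were expressed was not tested. Both the order and these ratios depend on that length.

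The transcription factors that act on the core loop from outside included further repressors that rose. Of 10 counted, 9 were tested, 4 rose and 0 fell, beside 7.76% of all tested genes called higher. The median log2 fold change of the 9 was 0.83. This was the value of HLF, which had only 5 to 17 counts and did not pass (adjusted p = 0.192). BHLHE40 and BHLHE41, also called DEC1 and DEC2, repress through the E-boxes of the activator pair. BHLHE40 rose from 31.8 ± 1.35 to 70.6 ± 0.740 CPM (SD, n = 3; log2 fold change 1.15, adjusted p = 1.51e-05), and BHLHE41 from 3.64 ± 0.293 to 8.56 ± 0.575 CPM (SD, n = 3; 1.22, adjusted p = 5.83e-04). RORA, the activator that competes with REV-ERB proteins for their element, rose from 41.8 ± 6.28 to 89.3 ± 7.56 CPM (SD, n = 3; 1.09, adjusted p = 2.56e-04). TEF, a PAR bZIP activator that binds D-boxes, rose from 2.02 ± 0.196 to 3.36 ± 0.518 CPM (SD, n = 3; 0.74, adjusted p = 0.0374), but its call was lost with DESeq2 (adjusted p = 0.0929) and with any 1 of the 6 libraries left out (0.58 to 0.78, adjusted p between 0.0514 and 0.192). Thus transcripts of both sides of the ROR element, RORA and the REV-ERB genes, were higher, while ARNTL did not pass the threshold. The 5 tested members that did not pass had log2 fold changes of -0.10 to 0.91, the highest in CIART with 8 to 22 counts. Among them were the D-box repressor NFIL3 at 0.42 (adjusted p = 0.0517) and the low DBP at 0.60 (adjusted p = 0.215).

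Among 6 genes often described as clock outputs, 3 rose and 0 fell, beside 7.76% of all tested genes called higher, with a median log2 fold change of 0.37. PPARA, a nuclear receptor of fatty acid oxidation, rose from 3.16 ± 0.325 to 5.33 ± 0.794 CPM (SD, n = 3; log2 fold change 0.75, adjusted p = 0.0212). KLF10, a zinc finger repressor, rose from 64.7 ± 5.69 to 87.6 ± 1.25 CPM (SD, n = 3; 0.44, adjusted p = 0.00820). NAMPT, the enzyme that salvages nicotinamide for NAD synthesis, rose from 1532 ± 115 to 1894 ± 10.6 CPM (SD, n = 3; 0.31, adjusted p = 0.0229). The remaining members had log2 fold changes of -0.13 to 0.45. The count was 1 without control replicate 1 and 0 without control replicate 2, fluoxetine replicate 1 or fluoxetine replicate 3. Calls over all genes also fell in these fits, from 2047 to 1191, 919, 572 and 935 in the same order.

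Of 13 tested coregulators of the clock 4 fell and 0 rose, beside 5.32% of all tested genes called lower, with a median log2 fold change of 0.07. They were SFPQ (-0.38, adjusted p = 0.00504), an RNA-binding partner of PER complexes, WDR5 (-0.42, adjusted p = 0.0125), a subunit of histone methyltransferases, HDAC3 (-0.36, adjusted p = 0.0266), the deacetylase recruited by REV-ERB proteins, and TIMELESS (-0.24, adjusted p = 0.0412), which also acts at replication forks. The count was 2 without control replicate 2 or fluoxetine replicate 3, and 1 without fluoxetine replicate 1. Over all genes these fits called 919, 935 and 572, against 2047 with all libraries. The call of TIMELESS was also lost with library size as the only scaling (adjusted p = 0.0544) and with control replicate 1 or fluoxetine replicate 2 left out (adjusted p = 0.0565 and 0.0521). Of 16 kinases, ubiquitin ligases and deubiquitinases that set the stability of clock proteins, GSK3B was the 1 that passed (0.39, adjusted p = 0.0231), beside 13.1% of all tested genes called in either direction, and the others had log2 fold changes down to -0.60. Of 11 tested genes that link cAMP and CREB to the PER promoters, 1 passed (9.09%), below the 13.1% of all tested genes. The gene was SIK2 (0.40, adjusted p = 0.0416). With the trends in GC content and length removed SIK2 was at 0.21 (adjusted p = 0.0925) and CREB1, at -0.30 (adjusted p = 0.00656), was the 1 called. The calls of GSK3B and SIK2 were both lost, with counts of 0 in their lists, when control replicate 1 or 2 or fluoxetine replicate 1 or 3 was left out. In these fits fewer genes were called over the whole table as well (1191, 919, 572 and 935).

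**Figure D4:**
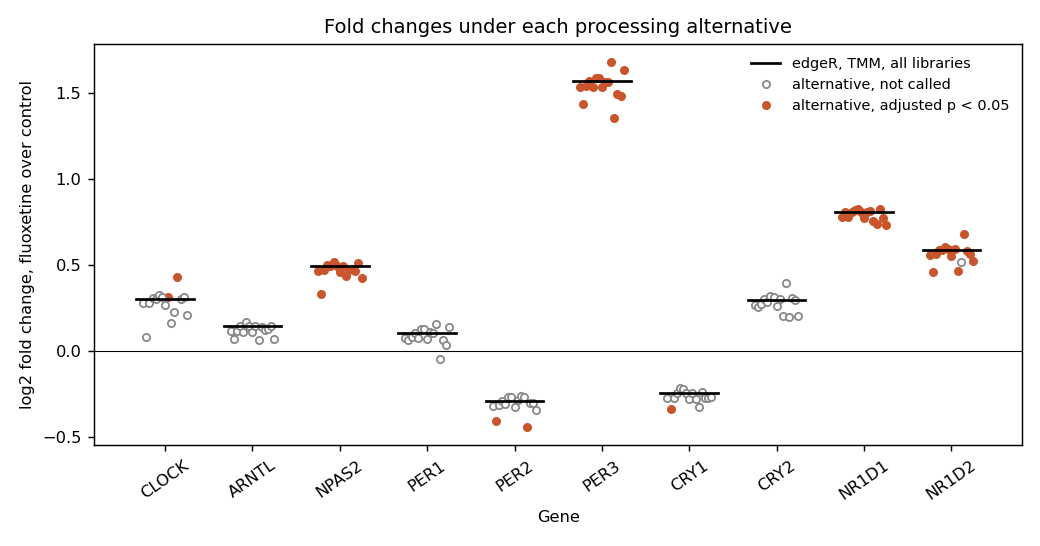
Log2 fold change of each core clock gene in the edgeR analysis (black bars) and in each alternative, with filled orange points where the adjusted p-value was under 0.05 and open grey points where it was not. NPAS2, PER3 and NR1D1 are filled throughout, and PER1 is the clock gene whose points fall on both sides of 0.

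NPAS2, PER3 and NR1D1 were called in all 15 alternatives, which changed the test, the normalization, the filter, the depth or the libraries used. Their log2 fold changes lay between 0.33 and 0.52 for NPAS2, between 1.36 and 1.68 for PER3, and between 0.74 and 0.83 for NR1D1. NR1D2 was called in 14 of the 15, with values between 0.46 and 0.68. With all libraries thinned to equal depth the log2 fold change of PER3, the gene with the fewest counts, was 1.54.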

How the data were processed

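RNA of H460 cells was sequenced by the study in 3 control and 3 fluoxetine libraries. The authors deposited raw counts of reads per gene for each library, without normalization. The submitters' processing notes name fastp 0.20.0, HISAT2 2.1.0, HTSeq 0.10.0 and DESeq2 1.18.1, and the annotation and strand setting are not given in the sources used here. The table also holds the authors' log2 fold changes and p-values, which were not used. Gene positions were those of GENCODE 29 (GRCh38) for 96.8% of 31635 shared genes.

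Tests used edgeR 4.0.16 in R 4.3.3 (filterByExpr, TMM, glmQLFit and glmQLFTest, no covariate), with Benjamini-Hochberg adjustment over 15646 genes. Every adjusted p is from this test unless another is named. A gene was called at an adjusted p under 0.05, and by a stricter rule with a fold change of at least 2 as well. Length is the union of annotated exons. All 10 clock genes are named, and of each further list the called members, up to 5 by p-value, with other members given as examples chosen after their values were seen. Promoters are from RefSeq, where ARNTL is listed as BMAL1. The clock genes and lists were chosen, from general knowledge, with earlier results of these data known. CD68 was not analysed here, 1 listed gene is not reported here, and RORB and RASD1 did not pass the filter.

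Alternatives were DESeq2 1.42.0, limma-voom (limma 3.58.1), RLE size factors, library size only, no filter, at least 10 counts in every library, equal depth, a block for the replicate number, and each library omitted in turn. Family ratios and the removal of GC content and length trends were added after the data were seen. Scripts were tested on simulated data.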

Additional observations from a re-analysis of the deposited data

How the results depend on the processing

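The log2 fold changes of ARNTL, NPAS2, PER3, CRY2 and NR1D1 kept their sign and their side of the threshold in all 15 alternatives. With each library left out in turn, the value of CLOCK lay between 0.17 and 0.43, ARNTL between 0.066 and 0.15, PER1 between -0.044 and 0.16, PER2 between -0.44 and -0.26, CRY2 between 0.20 and 0.40, and NR1D2 between 0.46 and 0.68, and the count of clock genes called between 3 and 6. The counts called were 3 to 4 for accessory transcription factors, 0 to 1 for kinases, ligases and deubiquitinases, 1 to 5 for coregulators, 0 to 1 for cAMP and CREB genes, 0 to 4 for outputs and 572 to 3633 for all genes. With GC content and length trends removed, PER2 was -0.41 and CRY1 -0.34, both called, and the counts were 4 kinases, ligases and deubiquitinases, 5 outputs, 1 cAMP and CREB gene (lower instead of higher) and 3739 genes in all (1452 higher, 2287 lower), against 2047 (1214 higher, 833 lower). DESeq2 split its calls into 1106 higher and 1140 lower, and no filter into 1393 and 1516. With a fold change of at least 2, the counts were 1 clock gene, 218 genes in all and 0 in the lists of kinases, coregulators, cAMP and CREB genes and outputs. To look for pairing, the deviations of each library from its group mean were correlated over the tested genes between control and fluoxetine libraries. In these deviations, same-numbered libraries correlated at 0.0297, 0.116 and 0.392. Control replicates 2 and 3 had their best match in the same number, and control replicate 1 in fluoxetine replicate 2 (0.320). These values did not settle whether the numbers pair the samples, and the main test had no block. With the replicate block CLOCK was 0.32 (adjusted p = 0.00568), and 5 clock genes and 4018 genes were called, against 4 and 2047 without it. The cause of these shifts was not tested. Depth limits PER3 most, at 31 to 34 counts in control libraries, and groups of 3 were too small to look for outlying samples.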
